A study of Mus musculus with 12 samples.

Results

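The 7 genes described here encode proteins that read methylated CpG sites or help to pass DNA methylation on: Mbd1, Mbd2, Mbd3, Zbtb33, Uhrf1, Uhrf2 and Hells. They were found by gene symbol in the array design, which carries 14 probes for them among 41174 distinct probes. All 14 probes passed the filter on dim probes, so all 7 genes were among the 20048 genes tested. Mbd1 and Mbd2 bind symmetrically methylated CpG through a methyl-CpG-binding domain and recruit corepressors, Mbd2 through the nucleosome remodelling and deacetylase (NuRD) complex. Mbd3 is a NuRD subunit that in mammals binds methylated DNA poorly, and Zbtb33 (Kaiso) is a zinc finger protein that binds pairs of methylated CpG. Uhrf1 recognises hemimethylated DNA behind the replication fork and brings the maintenance enzyme Dnmt1 to it, Uhrf2 is its paralog, and Hells (Lsh) is a Snf2-family remodeller needed for normal methylation of repeats. Mouse embryonic stem (ES) cells survive with very little DNA methylation, which makes them a common system for studying these proteins.

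Expression was measured in mouse ES cells on 12 Agilent 2-colour arrays. Per the labels, the groups were Dicer1-null ES cells overexpressing Dnmt1, Dicer1-null ES cells overexpressing Dnmt3a,3b, the Dicer1-null ES cells themselves, and wild-type ES cells. Each Dicer1-null condition existed as 2 cultures named 27G5 and 27H10, called clones below, whereas wild type was 1 named RNA, which makes 7 RNAs. Dicer is the nuclease that makes microRNAs, and all groups but wild type are labelled as lacking it. Each pair of RNAs was hybridised 2 times with the dyes exchanged, which gave 6 ratios, 1 per clone for each of 3 comparisons. The vector, its promoter, the deleted part of Dicer1, the mouse strain and the relation of the wild-type line to the clones are not given in the sources used here. The labels name no separate cultures beyond the clones, so p-values measure only the spread between these samples, and the wild-type RNA has no spread of its own in them. Values are mean log2 ratios ± SD over clones (n = 2), and "called" means an adjusted p under 0.05 from limma with Benjamini-Hochberg adjustment over all 20048 genes. The 2 comparisons with the lines labelled as overexpressing share their Dicer-null RNAs with each other and with the comparison with wild type, so their values are set side by side and not correlated.

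Dicer1 measured -0.53 ± 0.04 in Dicer-null over wild-type cells (adjusted p = 0.00400). It fell further in the labelled lines over their Dicer-null parents, by 0.63 ± 0.09 in the Dnmt1-labelled line (adjusted p = 0.00674) and by 0.77 ± 0.08 in the Dnmt3a,3b-labelled line (adjusted p = 0.00490), and whether the probe read lies in the deleted part is not known. In the line labelled Dnmt1, Dnmt1 itself measured 0.27 ± 0.23 over the Dicer-null cells and was not called (adjusted p = 0.111). In the line labelled Dnmt3a,3b, Dnmt3a measured -1.03 ± 0.92 (adjusted p = 0.0825) and Dnmt3b fell by 1.04 ± 0.59 on the log2 scale (adjusted p = 0.0341), so the arrays did not show the transcripts named in the labels as higher. Whether these probes can read the transgenes is not known, since the labels give neither their species nor the part of the transcript they carry. These lines are therefore called the Dnmt1-labelled and the Dnmt3a,3b-labelled line. The defining genes of ES cells were present: all 9 ES cell markers were well above background on every channel, with a mean log2 signal over the list of 13.75 to 14.05 in the Dnmt1-labelled lines, 13.83 to 13.96 in the Dnmt3a,3b-labelled lines, 13.78 to 13.86 in Dicer-null cells and 13.26 in wild type. In Dicer-null over wild-type cells 7 of these 9 markers were called higher and 0 lower, with a median of 0.71. Of all genes tested, 20.4% were called higher and 20.1% lower there. In the Dnmt1-labelled line 2 of the 9 ES cell markers rose, in the Dnmt3a,3b-labelled line 1 rose, and none fell in either. Of all genes, 23.0% (Dnmt1-labelled) and 21.2% (Dnmt3a,3b-labelled) were called in either direction. The marker counts below can be read against the same shares. Markers of other cell types also moved with the groups. Of 10 fibroblast markers, 7 of them well above background on every channel, 3 rose and 6 fell in Dicer-null over wild-type cells, and the list averaged 8.52 to 8.59 in the Dnmt1-labelled lines, 8.48 to 8.59 in the Dnmt3a,3b-labelled lines, 8.72 to 8.85 in Dicer-null and 9.61 in wild-type cells. Of 9 trophoblast markers, 7 of them well above background on every channel, 1 rose and 6 fell in Dicer-null cells, 5 rose in the Dnmt1-labelled line and 6 rose in the Dnmt3a,3b-labelled line. The trophoblast list averaged 10.43 to 10.87 in the Dnmt1-labelled lines, 10.53 to 10.57 in the Dnmt3a,3b-labelled lines, 9.25 to 9.29 in Dicer-null cells and 10.24 in wild type. Of 6 primitive endoderm markers, 4 of them well above background on every channel, 0 rose and 3 fell in Dicer-null over wild-type cells, and the list averaged 7.02 to 7.14 in Dicer-null and 7.89 in wild-type cells. Of 5 neuroectoderm markers 2 rose and 2 fell (9.45 to 9.52 in Dicer-null and 9.95 in wild-type cells), and of 3 measured mesoderm markers 1 rose and 2 fell (7.61 to 7.62 in Dicer-null and 8.69 in wild-type cells). Only 3 of the neuroectoderm and 1 of the mesoderm markers were well above background on every channel. The mesoderm marker T, which fell, was so on 7 of 24 channels. In each labelled line 1 neuroectoderm marker rose and 3 fell, with list medians of -1.12 (Dnmt1-labelled) and -1.09 (Dnmt3a,3b-labelled). The part of these marker shifts in the results below was not tested, and on such RNAs fewer cells of a type and less RNA per cell cannot be told apart. Arrays had median signals of 112 to 135 in green and 234 to 334 in red. The 4 arrays with wild-type RNA lay on 1 slide, the arrays of the lines of clone 27G5 on another, and those of clone 27H10 on the third, so in the line comparisons the slide and the clone are the same split and cannot be told apart, and the comparison with wild type cannot be told apart from its slide.

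The probes are 60 bases long and read only the stretch of transcript they match. The following 3 are shown because the values of Mbd3, Hells and Uhrf2 below rest on them or turn on them. Each also has a reading frame free of stop codons, as most member probes do. This does not place them in coding sequence. Positions are on build mm7 and are written in the order of the chromosome. The Mbd3 probe lies at chr10:80183845-80183905, where the file gives the coordinates in descending order. The Hells probe lies at chr19:38666109-38666168 and the second Uhrf2 probe at chr19:29756122-29756181, both in ascending order.
Mbd3 probe: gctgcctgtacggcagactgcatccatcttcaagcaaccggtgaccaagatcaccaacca
Hells probe: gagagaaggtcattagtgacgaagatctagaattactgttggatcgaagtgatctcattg
Uhrf2 probe 2: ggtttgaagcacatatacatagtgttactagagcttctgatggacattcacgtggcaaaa
The brightest Uhrf2 probe lies 37.19 kb further along, at chr19:29793312-29793371. The brightest Zbtb33 probe is at chrX:33288949-33289008 and the brightest Uhrf1 probe at chr17:54481483-54481542. No annotation of build mm7 was used here, so exon and UTR positions are not stated.

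Uhrf2, Zbtb33 and Hells were the 3 members that fell most in Dicer-null over wild-type cells. The 250 bases before their transcription starts are shown as RefSeq gives them on GRCm38.p6, since these proteins act at CpG sites. Capitals mark CGCG, the pair of adjacent CpG that Kaiso is known to bind when methylated, which reads the same on both strands. The Uhrf2 window is chr19:30030263-30030512, the Zbtb33 window chrX:38189543-38189792 and the Hells window chr19:38930740-38930989, all on the plus strand.
Uhrf2: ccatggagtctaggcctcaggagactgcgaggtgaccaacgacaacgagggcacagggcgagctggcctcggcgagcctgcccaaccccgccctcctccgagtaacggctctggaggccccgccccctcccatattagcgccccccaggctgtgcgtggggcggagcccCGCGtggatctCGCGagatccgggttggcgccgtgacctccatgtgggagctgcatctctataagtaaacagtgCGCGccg
Zbtb33: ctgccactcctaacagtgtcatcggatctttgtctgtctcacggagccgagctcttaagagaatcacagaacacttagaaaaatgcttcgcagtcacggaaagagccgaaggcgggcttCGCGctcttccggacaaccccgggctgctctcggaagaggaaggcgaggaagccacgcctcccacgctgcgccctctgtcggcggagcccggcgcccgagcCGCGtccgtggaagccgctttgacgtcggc
Hells: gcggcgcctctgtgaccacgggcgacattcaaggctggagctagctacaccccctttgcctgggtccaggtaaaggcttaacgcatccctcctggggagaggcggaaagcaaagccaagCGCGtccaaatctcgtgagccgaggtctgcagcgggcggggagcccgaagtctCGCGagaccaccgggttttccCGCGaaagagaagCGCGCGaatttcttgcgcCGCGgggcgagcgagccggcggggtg
Counting overlaps, CGCG occurred 3 times in the Uhrf2 window, 2 times in the Zbtb33 window and 6 times in the Hells window. It was present in 33.8% of the 32851 windows of this length in the table. The windows held 23, 27 and 28 CpG in the same order of genes, against a median of 6 over all windows. The Mbd3 window held 14 CpG and 1 CGCG, and of 2 Uhrf1 windows 1 held 10 CpG and no CGCG and the other 30 CpG and 4 CGCG. The promoter table matched 5 of the 7 members.

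MicroRNAs of the miR-290 and miR-302 clusters are prominent Dicer products of mouse ES cells, and 5 mature entries of these clusters in the RefSeq table share 1 seed. The 3 from the miR-290 cluster are shown with the seed, bases 2 to 8, in capitals.
mmu-miR-291a-3p: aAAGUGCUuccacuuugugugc
mmu-miR-294-3p: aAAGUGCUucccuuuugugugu
mmu-miR-295-3p: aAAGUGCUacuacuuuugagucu
The 7 letters that pair with this seed, AGCACTT, were found on the printed strand of 1 of the 14 member probes, the brightest probe of Mbd1. They were present in 0.61% of all 41174 probes. Over the 171 probes that held them and passed the filter, the median log2 ratio of Dicer-null over wild type was 0.21, against 0.01 over all 28818 probes that passed. This match describes the probe and is not shown to be a site, and the sequence of the Mbd1 transcript outside its probes was not examined.

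**Figure D1:**
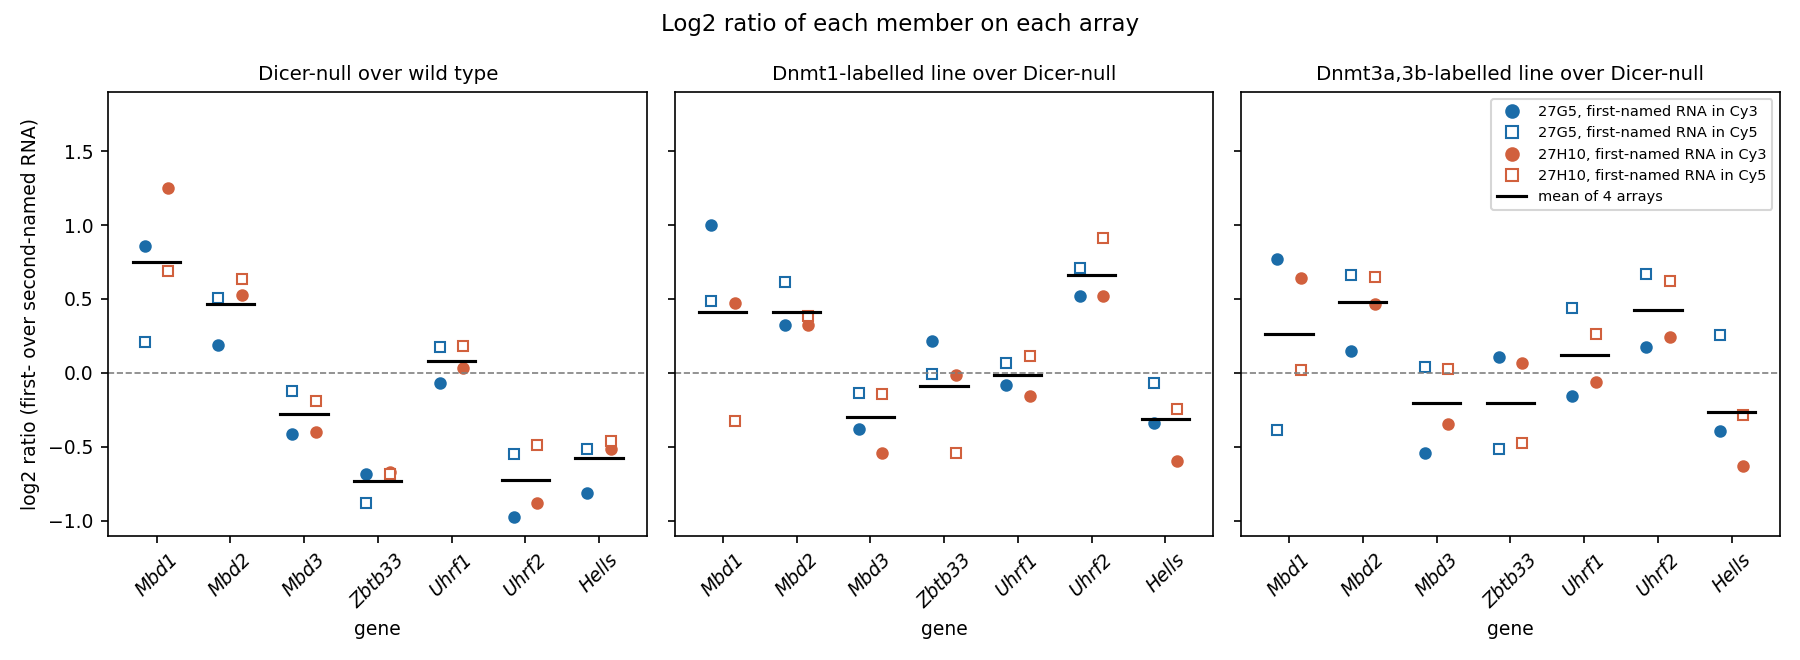
Log2 ratio of each member's brightest probe on each of the 12 arrays, in 3 panels by comparison, with clone by colour, dye by marker shape, and the mean of 4 arrays as a line. In Dicer-null over wild type the 4 arrays of Uhrf2, Zbtb33, Hells and Mbd3 all lie below 0 and those of Mbd1 and Mbd2 above 0, and in both labelled lines the Uhrf2 arrays lie above 0.

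The first comparison asked how cells without Dicer differ from wild-type ES cells. Mbd1 and Mbd2 rose, while Mbd3, Zbtb33, Uhrf2 and Hells fell, and Uhrf1 was not called. That makes 2 members higher and 4 lower among 7. In this comparison 40.4% of all genes tested were called, 20.4% higher and 20.1% lower, so calls were common across the array. All 6 members called had the same sign on 4 of 4 arrays.

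Among the methyl-CpG binders, with the array that had the first-named RNA in Cy3 always first, Mbd1 measured 0.86 and 0.21 on the 2 arrays of clone 27G5 and 1.25 and 0.69 on those of clone 27H10. All lie above 0, but its dye-swapped arrays differed by 0.52 to 1.15 over 6 pairs, against at most 0.65 for the brightest probe of any other member. Its mean was 0.75 ± 0.31, which is 1.68-fold higher in Dicer-null cells (adjusted p = 0.0223). Mbd2 measured, for clone 27G5, 0.19 and 0.51 and, for clone 27H10, 0.53 and 0.64, a mean of 0.46 ± 0.17 (adjusted p = 0.0117). Mbd3, the NuRD subunit, lay lower in Dicer-null cells on all 4 arrays, at -0.41 and -0.12 for clone 27G5 and -0.40 and -0.19 for clone 27H10. Its mean was -0.28 ± 0.02 (adjusted p = 0.0280), with clone means of -0.27 (27G5) and -0.30 (27H10) that lay closer together than the arrays of a pair. Zbtb33 measured -0.68 and -0.88 on the clone 27G5 arrays, with -0.67 and -0.69 on those of clone 27H10, which gave -0.73 ± 0.07 and the level in Dicer-null cells 1.66-fold below wild type (adjusted p = 0.00408).

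Of the Uhrf proteins, Uhrf1 was not called and Uhrf2 was, and the difference between them was not tested. Uhrf1 measured, for clone 27G5, -0.07 and 0.18 and, for clone 27H10, 0.03 and 0.18, on both sides of 0. Its mean was 0.08 ± 0.04 (adjusted p = 0.415), with a 95% interval of -0.09 to 0.25 from the limma fit, so a change beyond this range was not seen and a smaller one could not be told from none. Uhrf2 measured -0.98 and -0.55 on the clone 27G5 arrays, with -0.88 and -0.49 on those of clone 27H10. It fell by 0.72 ± 0.05 on the log2 scale, which puts Dicer-null cells 1.65-fold below wild type (adjusted p = 0.00123), on its brightest probe, while its other 2 probes were not called. Hells, the remodeller, measured, for clone 27G5, -0.81 and -0.51 and, for clone 27H10, -0.52 and -0.46, a mean of -0.58 ± 0.12 (adjusted p = 0.0138).

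Calls were fewer when the ratio of 1 clone was left out of a comparison. The comparison then rests on 1 ratio, whose spread is taken from the clones of the other comparisons and assumed to be like theirs. Without clone 27G5 the members called were 2, Mbd2 and Uhrf2, and without clone 27H10 they were 2, Zbtb33 and Uhrf2. When the RNAs shared between arrays were modelled, 1 member remained called, Uhrf2.

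The second comparison asked how the Dnmt1-labelled line differs from its Dicer-null parent. Uhrf2 and Mbd2 rose over their Dicer-null parents and Mbd3 fell, and the other 4 members were not called. Across the array 23.0% of genes were called in either direction, against 3 of 7 members. Uhrf2 measured 0.52 and 0.71 on the clone 27G5 arrays, with 0.52 and 0.91 on those of clone 27H10, so that no array lay below 0.5. Its mean was 0.66 ± 0.07, a 1.58-fold higher level in the Dnmt1-labelled line (adjusted p = 0.00536). Mbd2 measured, for clone 27G5, 0.33 and 0.61 and, for clone 27H10, 0.32 and 0.39, which gave 0.41 ± 0.08 (adjusted p = 0.0304). Mbd3 measured -0.38 and -0.14 on the clone 27G5 arrays, with -0.54 and -0.14 on those of clone 27H10, a mean of -0.30 ± 0.06 (adjusted p = 0.0372). It stayed called in 7 of 16 alternative analyses. With the clone as a block it was no longer called (adjusted p = 0.0601). The call was also lost with the scanner log ratio, the authors' deposited values and a stricter filter on dim probes, among others.

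The remaining members differed between clones or lay near 0. Mbd1 measured 0.74 for clone 27G5 and 0.07 for clone 27H10, with 1 array of clone 27H10 at -0.33, and averaged 0.41 ± 0.47 (adjusted p = 0.163). Zbtb33 measured 0.10 for clone 27G5 and -0.28 for clone 27H10, and its mean of -0.09 ± 0.27 was smaller than its spread (adjusted p = 0.600). Hells lay below 0 on 4 of 4 arrays, at -0.34 and -0.07 for clone 27G5 and -0.60 and -0.25 for clone 27H10, but its mean of -0.31 ± 0.16 was not called (adjusted p = 0.121). Uhrf1 averaged -0.02 ± 0.01 (adjusted p = 0.899), with a 95% interval of -0.19 to 0.16. Without clone 27G5, and likewise without clone 27H10, 1 member stayed called, which was Uhrf2. With this comparison fitted alone, or with shared RNAs modelled, 0 members were called.

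The third comparison asked the same of the line labelled Dnmt3a,3b. Mbd2 and Uhrf2 were again the members that rose over Dicer-null cells, and none of the others was called. This is 2 of 7 members, where 21.2% of all genes were called, 10.4% higher and 10.8% lower. Mbd2 measured, for clone 27G5, 0.15 and 0.66 and, for clone 27H10, 0.47 and 0.65, a mean of 0.48 ± 0.11 (adjusted p = 0.0211). Uhrf2 measured 0.18 and 0.67 on the clone 27G5 arrays, with 0.24 and 0.62 on those of clone 27H10, a mean of 0.43 ± 0.01 (adjusted p = 0.0152). All 4 arrays of both genes lay above 0, and for both genes the clone means lay closer together than the dye-swapped arrays of each pair. Mbd1 measured 0.26 ± 0.10 (adjusted p = 0.354) and Mbd3 -0.20 ± 0.07 (adjusted p = 0.101). Zbtb33 was at -0.20 in both clones (adjusted p = 0.227), with 2 of its 4 arrays above 0 and 2 below. Uhrf1 measured 0.12 ± 0.03, with a 95% interval of -0.05 to 0.29 (adjusted p = 0.271). Hells measured -0.07 for clone 27G5 and -0.46 for clone 27H10, which averaged -0.26 ± 0.28 (adjusted p = 0.178). On clone 27G5 alone Mbd2 measured 0.41 and Uhrf2 0.42, and on clone 27H10 alone 0.56 and 0.43. A fit left with 1 clone takes its spread from the other comparisons, and neither gene stayed called in it. Such a fit does not measure the spread of this line. With this comparison fitted alone, on its own 2 clones, Mbd2 and Uhrf2 stayed called. Over all genes 4593 were then called, against 4251 in the main fit. The Dnmt1-labelled line fitted alone had 236 genes called, against 4614. With shared RNAs modelled, neither Mbd2 nor Uhrf2 stayed called in the Dnmt3a,3b-labelled line.

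Mbd2 and Uhrf2 were the 2 members called in all 3 comparisons. How many of all genes were called in all 3 was not counted, so this is a description only. Mbd2 was higher each time, whereas Uhrf2 was lower in Dicer-null than in wild-type cells and higher in both labelled lines than in Dicer-null cells. With the mean of its probes Mbd2 was 0.23 in Dicer-null over wild-type cells and not called (adjusted p = 0.0506). The reversal of Uhrf2 uses the Dicer-null RNA on opposite sides of the ratio, and the same RNA names enter all 3 comparisons.

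The labelled lines were compared with each other through their shared Dicer-null parent. Of 20048 genes, 0 were called by limma in this difference, in the main fit and in all 16 alternatives, and 191 genes (0.953%) had an unadjusted p under 0.05. No member was called (adjusted p = 0.9999 for each). The largest difference among the members whose clones shared a sign was that of Uhrf2, -0.24 ± 0.06 for the Dnmt3a,3b-labelled minus the Dnmt1-labelled line, with a 95% interval of -0.49 to 0.02. Mbd1 differed by -0.15 ± 0.57, with clones on opposite sides of 0 and an interval of -0.79 to 0.49. The intervals of the other 5 members lay between -0.49 and 0.47.

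**Figure D2:**
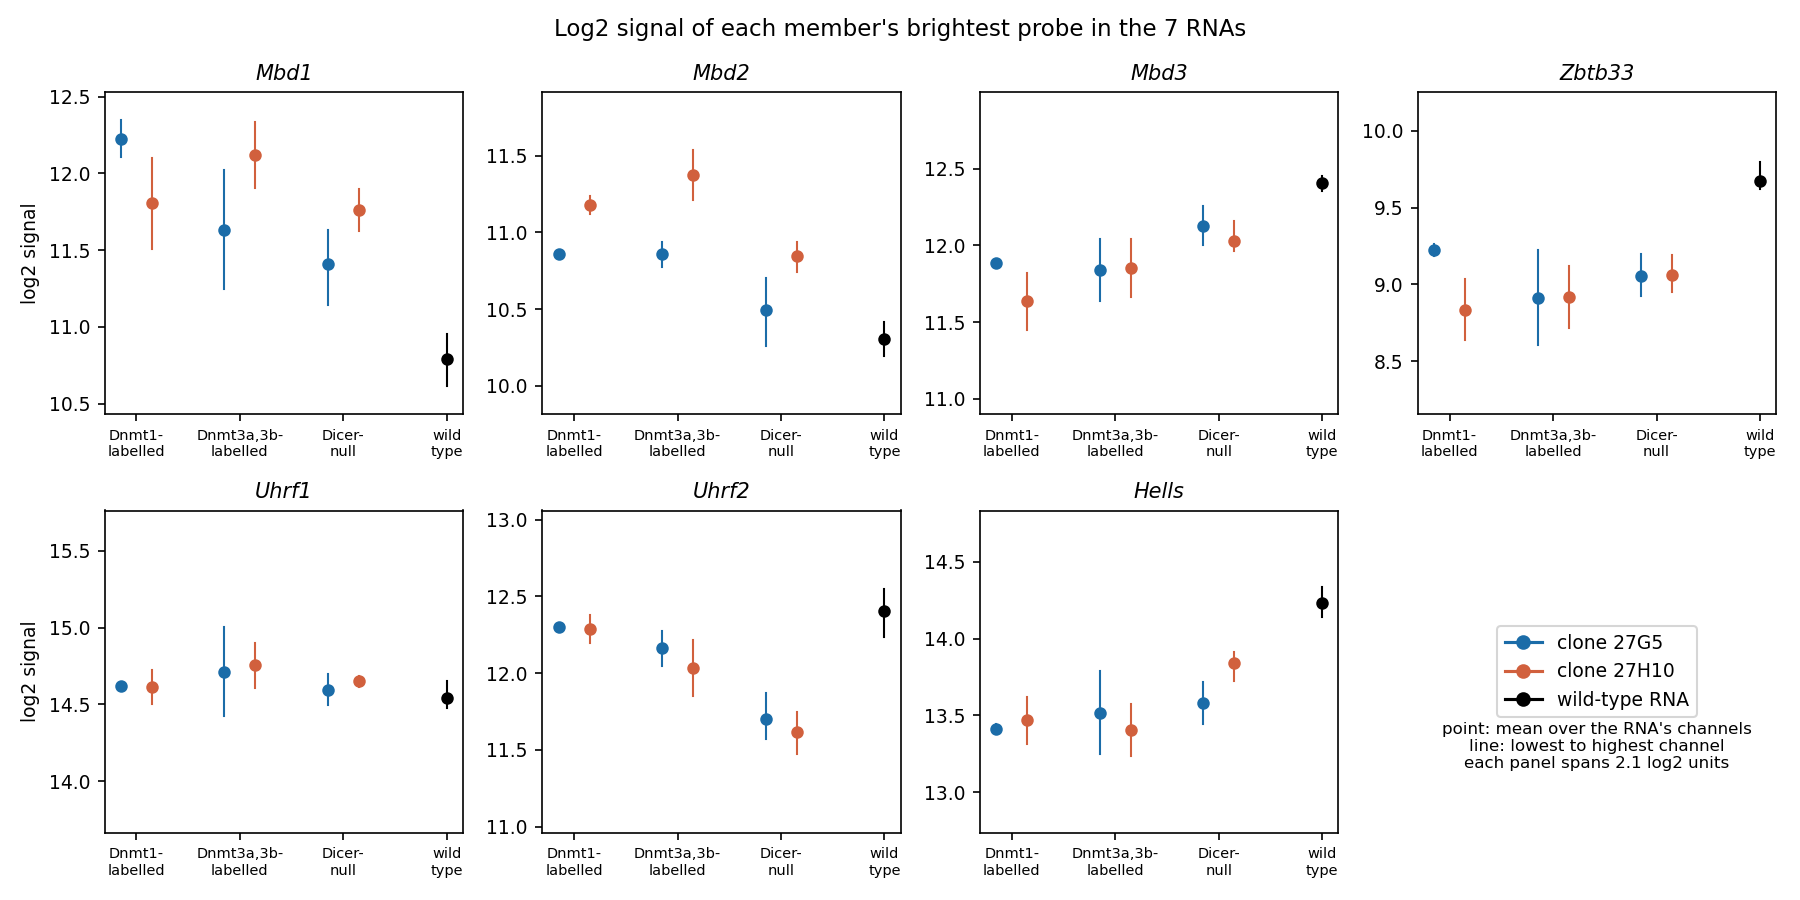
Log2 signal of each member's brightest probe in the Dnmt1-labelled, Dnmt3a,3b-labelled, Dicer-null and wild-type RNAs, 1 panel per gene, with points for the mean of an RNA and lines from its lowest to its highest channel. Mbd1 and Mbd2 are lowest in wild type, Mbd3, Zbtb33 and Hells are highest there, the Uhrf1 means stay between 14.54 and 14.75, and Uhrf2 is lowest in the Dicer-null RNAs.

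The levels of each gene were also set in order across the 7 RNAs, as log2 signals of its brightest probe after normalisation between arrays. These levels compare RNAs for 1 probe at a time and add no test, and wild type was on 1 slide only. Uhrf2 averaged 12.29 in the Dnmt1-labelled lines, 12.10 in the Dnmt3a,3b-labelled lines, 11.66 in Dicer-null cells and 12.41 in wild type. The RNA means of neighbouring groups did not overlap in this order, but single channels did. The order did not hold on its other probes. On the second probe wild type was lowest, at 9.55 against 9.64 (27G5) and 9.80 (27H10) in Dicer-null cells. On the third, wild type (9.63) lay between the Dicer-null clones, at 9.31 (27G5) and 9.65 (27H10). Mbd2 averaged 11.02 in the Dnmt1-labelled and 11.12 in the Dnmt3a,3b-labelled lines, which overlapped, 10.67 in Dicer-null cells and 10.31 in wild type. It was higher in clone 27H10 than in clone 27G5 in each of the 3 conditions, for example 10.85 against 10.50 in Dicer-null cells. Mbd1 averaged 12.02 in the Dnmt1-labelled lines, 11.88 in the Dnmt3a,3b-labelled lines and 11.59 in Dicer-null cells, all overlapping their neighbours, and 10.79 in wild type.

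Mbd3, Zbtb33 and Hells had their highest level in wild type, at 12.40, 9.67 and 14.23. Mbd3 averaged 11.76 in the Dnmt1-labelled and 11.85 in the Dnmt3a,3b-labelled lines, which overlapped, and 12.08 in Dicer-null cells. Hells averaged 13.44 in the Dnmt1-labelled and 13.46 in the Dnmt3a,3b-labelled lines, which overlapped, and 13.71 in Dicer-null cells. Zbtb33 averaged 9.03 in the Dnmt1-labelled lines, 8.92 in the Dnmt3a,3b-labelled lines and 9.06 in Dicer-null cells, and the Dnmt1-labelled group overlapped both others, which did not overlap each other. Uhrf1 averaged 14.62 in the Dnmt1-labelled lines, 14.73 in the Dnmt3a,3b-labelled lines, 14.62 in Dicer-null cells and 14.54 in wild type, and the Dnmt1-labelled and Dicer-null groups overlapped. No member was saturated on any channel.

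**Figure D3:**
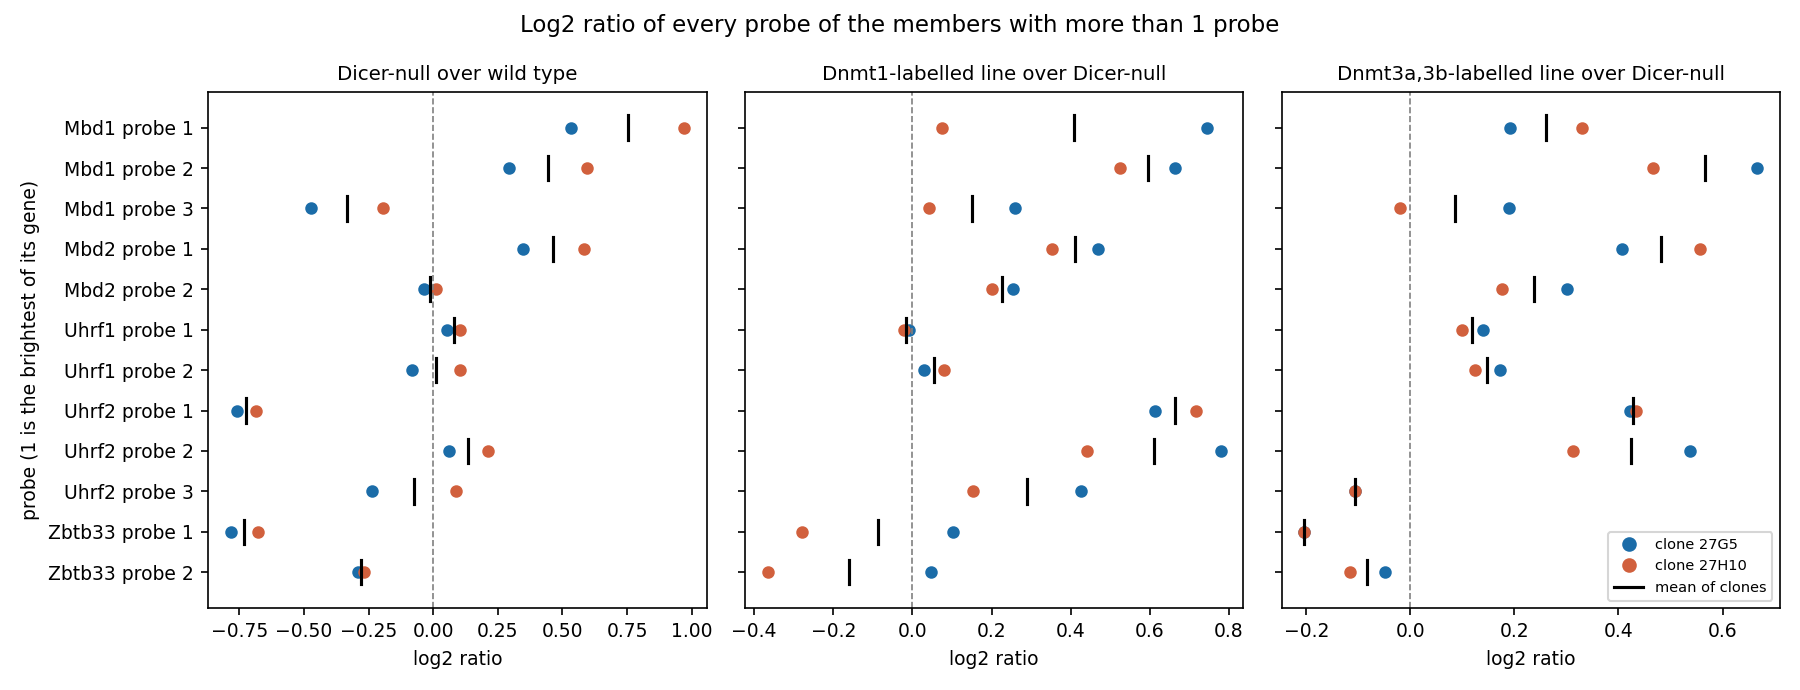
Log2 ratio of every probe of the 5 members with more than 1 probe, by comparison, with 1 point per clone and a line at their mean; probe 1 is the brightest of its gene, and each panel has its own horizontal scale. Uhrf2 probe 1 lies near -0.72 in Dicer-null over wild type while its other probes lie near 0, and Uhrf2 probes 1 and 2 both lie above 0 in the labelled lines.

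For 5 members there was more than 1 probe, and for some of them the probes disagreed. For Uhrf2 in Dicer-null over wild-type cells, the brightest probe measured -0.72 (adjusted p = 0.00115 when all probes were fitted), but the second probe measured 0.14 (adjusted p = 0.390) and the third -0.07 (adjusted p = 0.641). The fall of Uhrf2 in Dicer-null cells therefore rests on 1 of 3 probes, and with the mean of its probes it was -0.22 and not called (adjusted p = 0.0832). In the Dnmt1-labelled line the same probes measured 0.66 (adjusted p = 0.00496), 0.61 (adjusted p = 0.0173) and 0.29 (adjusted p = 0.117). In the Dnmt3a,3b-labelled line they measured 0.43 (adjusted p = 0.0144), 0.42 (adjusted p = 0.0465) and -0.11 (adjusted p = 0.532). Both the probe printed above and the brightest one were thus called higher in the labelled lines, whereas the third probe was not called in either line and lay below 0 in the Dnmt3a,3b-labelled line. With the mean of its probes Uhrf2 was 0.52 in the Dnmt1-labelled line and called, and 0.25 in the Dnmt3a,3b-labelled line, where it was not called (adjusted p = 0.0848).

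For Mbd1, the second probe lies 473 bases from the brightest. It measured 0.45 in Dicer-null over wild-type cells (adjusted p = 0.0201), 0.59 in the Dnmt1-labelled line (adjusted p = 0.0155) and 0.57 in the Dnmt3a,3b-labelled line (adjusted p = 0.0178), so it was called in all 3 comparisons where the brightest probe was called in 1. In the Dnmt1-labelled line its clones measured 0.66 (27G5) and 0.52 (27H10), closer together than those of the brightest probe. The third Mbd1 probe measured -0.33 in Dicer-null cells (adjusted p = 0.0562), 0.15 in the Dnmt1-labelled line and 0.09 in the Dnmt3a,3b-labelled line. With the mean of its probes, Mbd1 in Dicer-null over wild-type cells was 0.29 and not called.

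The second Mbd2 probe was well above background on 18 of 24 channels. It measured -0.01 in Dicer-null over wild-type cells (adjusted p = 0.912), 0.23 in the Dnmt1-labelled line (adjusted p = 0.0809) and 0.24 in the Dnmt3a,3b-labelled line (adjusted p = 0.0722), so it was positive in the lines and near 0 in the comparison with wild type. The second Zbtb33 probe, well above background on 14 of 24 channels, measured -0.28 (adjusted p = 0.0949), -0.16 and -0.08 in the 3 comparisons. The means of both Uhrf1 probes stayed within 0.15 of 0 in every comparison.

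**Figure D4:**
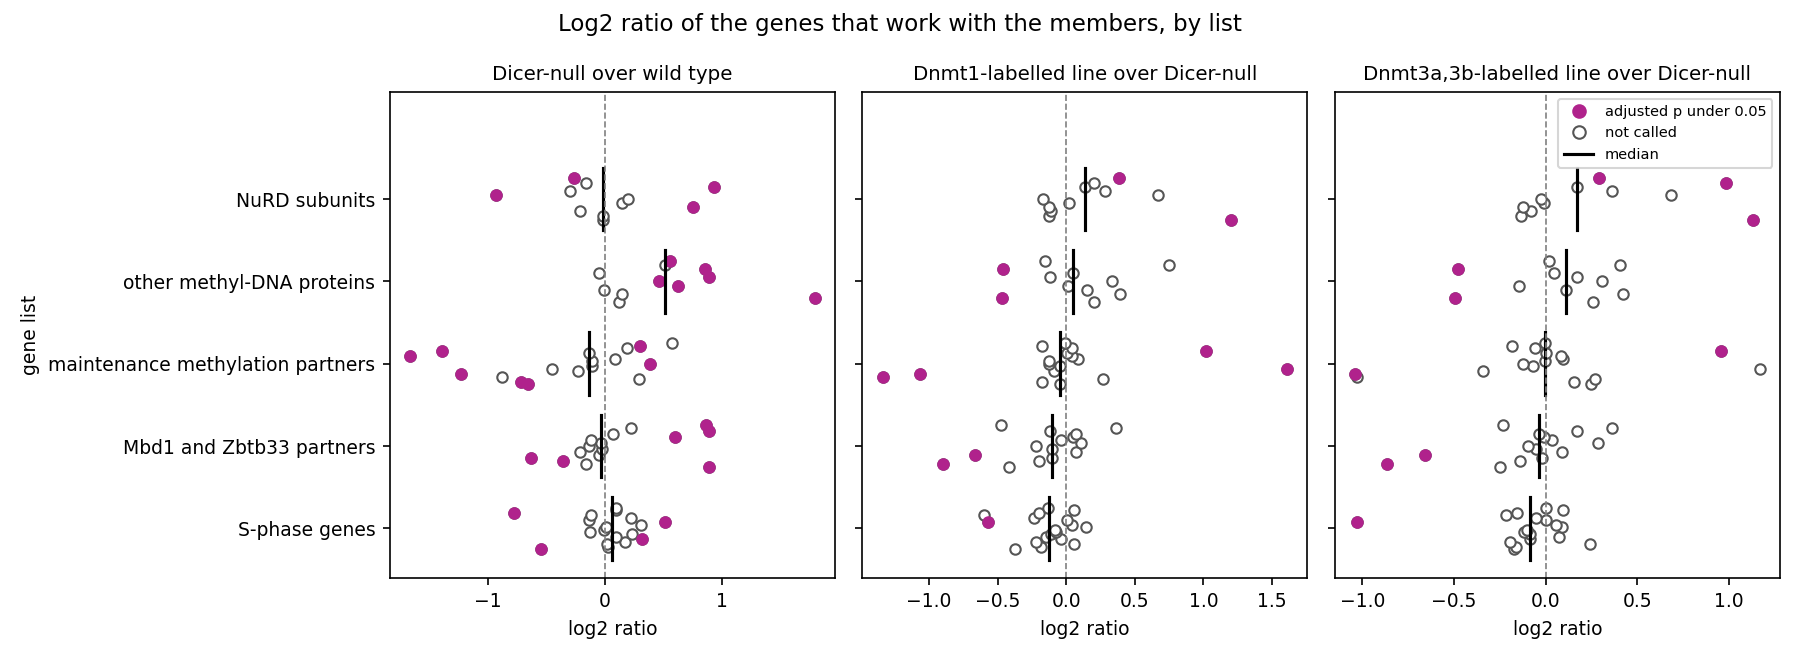
Log2 ratio of the genes of 5 lists of proteins that work with the members, by comparison, with called genes filled, others open and the list median as a line; each panel has its own horizontal scale. Of the other methyl-DNA proteins, 6 are called and all 6 lie above 0 in Dicer-null over wild type, and Suv39h1, among the maintenance methylation partners, lies at -1.39 there and near 1 in the labelled lines.

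The partners of these proteins were followed in 5 lists with 75 entries, read against the same shares of all genes called. Other proteins known or proposed to bind methylated DNA were called higher in Dicer-null over wild-type cells for 6 of 11 measured members and lower for 0, with a list median of 0.52 against 0.01 over all genes. Among all genes tested, 20.4% were called higher and 20.1% lower there. Baz2b, a bromodomain protein with a domain related to that of the MBD proteins, rose by 1.79 ± 0.08 (adjusted p = 0.000275). Setdb1, a histone H3 lysine 9 methyltransferase, rose by 0.89 ± 0.16 (adjusted p = 0.00269), and Zbtb38, a Kaiso-like zinc finger protein, by 0.85 ± 0.15 (adjusted p = 0.00148). Mbd6 (0.63 ± 0.02, adjusted p = 0.00391) and the imprint protector Zfp57 (0.56 ± 0.12, adjusted p = 0.0251), named after their values were seen, also rose. In the labelled lines 2 of the 11 fell and none rose. Of all genes, 23.0% (Dnmt1-labelled) and 21.2% (Dnmt3a,3b-labelled) were called in either direction. Zbtb38 fell by 0.46 ± 0.13 in the Dnmt1-labelled line and by 0.48 ± 0.04 in the Dnmt3a,3b-labelled line. Baz2b fell by 0.47 ± 0.23 and by 0.50 ± 0.11 in the same lines. With the clone as a block, 2 members of this list were called higher in the Dnmt1-labelled and 1 in the Dnmt3a,3b-labelled line. In Dicer-null over wild-type cells, 3 were called higher without clone 27G5, 3 without clone 27H10 and 1 with shared RNAs modelled.

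Of 11 measured NuRD subunits, the complex that holds Mbd2 or Mbd3, 2 rose and 2 fell in Dicer-null over wild-type cells, with a median of -0.02, where 40.4% of all genes were called. Values are of the brightest probe of each gene, and with the mean of its probes 1 rose and 2 fell. Without clone 27G5, and likewise without clone 27H10, 1 rose and 0 fell, with shared RNAs modelled 0 were called, and with the clone as a block 1 fell. Mta3 rose by 0.94 ± 0.15 (adjusted p = 0.00190) and Gatad2b by 0.76 ± 0.03 (adjusted p = 0.0109), while Mta1, of the same subunit family as Mta3, fell by 0.93 ± 0.06 (adjusted p = 0.0125) and the histone chaperone Rbbp7 by 0.26 ± 0.01 (adjusted p = 0.0282). In the lines the calls were higher ones only. They were 2 of 11 in the Dnmt1-labelled line (median 0.14), where 23.0% of all genes were called in either direction. In the Dnmt3a,3b-labelled line they were 3 of 11 (median 0.17), where 21.2% of all genes were called. The ATPase Chd3 rose by 1.20 ± 0.27 (adjusted p = 0.00539) in the Dnmt1-labelled line and by 1.13 ± 0.14 (adjusted p = 0.00649) in the Dnmt3a,3b-labelled line. Rbbp7 rose by 0.38 ± 0.00 and by 0.29 ± 0.02 in the same lines, and Rbbp4 by 0.98 ± 0.07 in the Dnmt3a,3b-labelled line (adjusted p = 0.00453), against 0.20 ± 0.20 in the Dnmt1-labelled line (adjusted p = 0.176). The difference of Rbbp4 between the lines was not called. Without clone 27G5 no NuRD subunit was called in the Dnmt3a,3b-labelled line, nor without clone 27H10.

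Of 17 partners of maintenance methylation, 2 rose and 5 fell in Dicer-null over wild-type cells, with a median of -0.14, a share called near the 40.4% of all genes. Pclaf, the PCNA-associated factor that Dnmt1 recruitment can use, fell by 1.67 ± 0.04 (adjusted p = 0.000627), the H3 lysine 9 methyltransferase Suv39h1 by 1.39 ± 0.08 (adjusted p = 0.000707) and Dnmt3b by 1.23 ± 0.30 (adjusted p = 0.0107). The other 2, named after their values were seen, were Cdca7, which works with Hells in remodelling (-0.66 ± 0.22, adjusted p = 0.0141), and its relative Cdca7l (-0.72 ± 0.05, adjusted p = 0.0120). Ehmt2, another H3 lysine 9 methyltransferase, rose by 0.39 ± 0.09 (adjusted p = 0.00984), and the deubiquitinase Usp7, also named after its value was seen, by 0.30 ± 0.14 (adjusted p = 0.0354). In the Dnmt1-labelled line 2 rose and 2 fell, with a median of -0.05, where 23.0% of all genes were called. Suv39h1 rose by 1.02 ± 0.27 there (adjusted p = 0.00581) and by 0.96 ± 0.16 in the Dnmt3a,3b-labelled line (adjusted p = 0.00712). Dppa3, which keeps Uhrf1 from chromatin, rose by 1.61 ± 0.65 in the Dnmt1-labelled line (adjusted p = 0.0227) and measured 1.17 ± 0.54 in the Dnmt3a,3b-labelled line (adjusted p = 0.0547). Both that fell in the Dnmt1-labelled line were the methyltransferases Dnmt3a (-1.34 ± 0.58, adjusted p = 0.0405) and Dnmt3b (-1.06 ± 0.40, adjusted p = 0.0307). In the Dnmt3a,3b-labelled line Suv39h1 was the 1 that rose and Dnmt3b the 1 that fell, where 21.2% of all genes were called. With the clone as a block, 3 rose and 6 fell in Dicer-null cells and 2 rose in the Dnmt3a,3b-labelled line. Without clone 27G5, and likewise without clone 27H10, 0 rose and 2 fell in Dicer-null cells.

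Of 15 partners of Mbd1 and Zbtb33, 4 rose and 2 fell in Dicer-null over wild-type cells, with a median of -0.04, again a share near the 40.4% of all genes. With the mean of each gene's probes, 4 rose and 1 fell. Setdb1, a partner of Mbd1, is described above, the corepressor Ncor1, a partner of Kaiso, rose by 0.60 ± 0.07 (adjusted p = 0.00818), and the heterochromatin protein Cbx3 fell by 0.63 ± 0.13 (adjusted p = 0.00311). In the lines 2 of 15 fell and none rose, where 23.0% (Dnmt1-labelled) and 21.2% (Dnmt3a,3b-labelled) of all genes were called in either direction. Atf7ip2 fell by 0.90 ± 0.35 in the Dnmt1-labelled line (adjusted p = 0.00974) and by 0.87 ± 0.04 in the Dnmt3a,3b-labelled line (adjusted p = 0.0111), and the heterochromatin protein Cbx5 by 0.66 ± 0.22 (adjusted p = 0.0109) and by 0.66 ± 0.12 (adjusted p = 0.0114). In Dicer-null cells 1 rose and 0 fell without clone 27G5, and 2 rose and 1 fell without clone 27H10. With the clone as a block, 1 rose in each labelled line.

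Uhrf1 and Hells are transcribed mostly in dividing cells, so 18 measured S-phase genes were set beside them. In Dicer-null over wild-type cells 2 rose and 2 fell, with a median of 0.06, a smaller share than the 40.4% of all genes. Without clone 27G5, and likewise without clone 27H10, 0 rose and 1 fell. Slbp, which processes histone mRNA, fell by 0.78 ± 0.03 (adjusted p = 0.000985), and the proliferation marker Mki67 rose by 0.51 ± 0.03 (adjusted p = 0.0174). Mki67 was the 1 list member that fell in each labelled line, by 0.57 ± 0.22 in the Dnmt1-labelled line (adjusted p = 0.0236) and by 1.03 ± 0.22 in the Dnmt3a,3b-labelled line (adjusted p = 0.00598), where the list medians were -0.12 and -0.09. Of all genes, 23.0% (Dnmt1-labelled) and 21.2% (Dnmt3a,3b-labelled) were called in these lines. The part of cell cycle state in the values of Hells was not tested.

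Genes whose 6 ratios lay nearest to those of each called member were listed by Euclidean distance, as a description over the same arrays. Uhrf2 was nearest to Bcar1 (distance 0.21) and C1qtnf6 (0.23), Mbd2 to Ctdsp2 (0.20) and Naa35 (0.23), and Mbd3 to Ipo13 (0.10) and Mthfs (0.13). Zbtb33 was nearest to Lysmd2 (0.13) and Tmem229a (0.19) and Hells to Smn1 (0.16) and Polr2k (0.17). Mbd1, whose clones differed most among the members in Dicer-null over wild type and in the Dnmt1-labelled line but not in the Dnmt3a,3b-labelled line, had its nearest neighbours farther away, Arhgdib at 0.40 and Folr2 at 0.41.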

How the data were processed

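The deposited scanner files hold mean signal intensity and median background intensity per spot, from Agilent Feature Extraction 9.5.1.1 (arrays of the labelled lines) and 9.1.3.1 (arrays with wild-type RNA), per the file headers. They also hold a log10 ratio made by that software, and the authors' deposited value table holds log2 values already turned to one direction; both served as alternatives. Ratios were computed here with limma 3.58.1 (R 4.3.3; statmod 1.5.0 for the random block): normexp background correction (offset 50), loess within arrays, control and outlier spots left out, spots of a probe and the 2 arrays of a pair averaged. A probe passed when at least 1 RNA was well above background on both arrays of a pair and every array had a value; the brightest probe stood for its gene. Symbols were updated through RefSeq (GRCm38.p6), which named 22951 probes. The 6 ratios were fitted with 1 coefficient per comparison (3 residual degrees of freedom). Clones pair the ratios because they are cell lines; clone deviations correlated at 0.365 between the labelled lines, and at -0.0649 and -0.1275 between each of them and the comparison with wild type. Named genes were the members, 2 nearest genes per called member, up to 3 called genes per list and comparison by moderated statistic, and Dicer1 and the Dnmt genes. Members, lists and rules were chosen with earlier results of these data known. The fits were tested on simulated data, 16 alternatives were run, and 0 columns per sample were left unused. The number of arrays limits precision. Levels are signals per channel after loess and Aquantile normalisation.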

Additional observations from a re-analysis of the deposited data

How the results depend on the processing

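Of the 448 member ratios under the 16 alternatives, 397 kept direction and side of the threshold, 42 lost their call and 9 changed sign. Part of this tally was fixed beforehand. Alternatives that change only the filter or the model kept the same mean ratios, so no sign could change there. In the difference between the lines no member was called, so no call could be lost. Members called in Dicer-null over wild type were 3 with the mean of probes, 1 with shared RNAs modelled and 2 to 2 without a clone. In the Dnmt1-labelled line they were 1 with the scanner log ratio, 0 with shared RNAs modelled, 0 fitted alone and 1 to 1 without a clone. In the Dnmt3a,3b-labelled line they were 1 with the mean of probes, 0 with shared RNAs modelled and 0 to 0 without a clone. Sign changes were of Uhrf1 in Dicer-null over wild type with median centring (-0.045) and of Uhrf1 in the Dnmt1-labelled line with the scanner log ratio (0.0048), the deposited table (0.0196) and the mean of probes (0.0197). Without a clone, Zbtb33 in the Dnmt1-labelled line ranged from -0.2789 to 0.1029, and in the difference between the lines Mbd1 ranged from -0.5517 to 0.2546, Mbd2 from -0.0638 to 0.2039, Zbtb33 from -0.307 to 0.0749 and Hells from -0.035 to 0.1348. All genes called in Dicer-null over wild type were 8109, against 1944 with shared RNAs modelled, 3487 without clone 27G5 and 3120 without clone 27H10. In the Dnmt1-labelled line they were 4614, against 480 with shared RNAs modelled, 236 fitted alone and 2340 without clone 27H10, and in the Dnmt3a,3b-labelled line 4251, against 384 with shared RNAs modelled, 6414 with a dye effect per gene, 4 without clone 27G5 and 0 without clone 27H10. Fitted alone, the Dnmt3a,3b-labelled line had 4593 genes called. With the replicate block, members called were 6, 2 and 2 in the 3 comparisons, and it changed no member's call but that of Mbd3 in the Dnmt1-labelled line. Of 640 list counts, 118 moved by over 1.5 times, 80 down and 38 up. Except where fewer samples or shared RNAs enter the fit, the cause was not tested. With 2 clones and 1 wild-type RNA, small changes such as that of Mbd3 are at the limit of these arrays.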
